A study of Mus musculus with 29 samples.

Results

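The 10 FGF signalling genes described here were measured in cultures of crude stromal vascular fraction (SVF), which holds the cells other than adipocytes that enzyme digestion frees from white fat. They are the receptors Fgfr1, Fgfr2 and Fgfr3, the ligands Fgf2, Fgf7 and Fgf10, the feedback inhibitors Spry2, Spry4 and Dusp6, and the transcription factor Etv4. They were taken by symbol, and all 10 had a row among the 56953 features of the deposited count table. The cells came from inguinal (iWAT) or perigonadal (pgWAT) white adipose tissue of adult C57BL6/J mice, with 19 libraries from iWAT (10 labelled male and 9 labelled female) and 10 from pgWAT (4 labelled male and 6 labelled female). Every culture, in both depots and both labelled sexes, was grown for 4 days in PM1 medium with 1 nM basic FGF, the protein that Fgf2 encodes. No well without FGF was analysed here, so the values are levels under FGF and not a response to it. The study describes the wells as technical replicates from a few independent experiments, fewer for pgWAT than for iWAT. The labels do not tie a well to an animal or an experiment. The p-values therefore measure the spread between wells, and not between experiments or animals.

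FGF ligands bind receptor tyrosine kinases together with heparan sulfate on the cell surface, and the receptors signal through the adaptor Frs2 to RAS, MEK and ERK. ERK activity induces transcription factors of the Etv4 and Etv5 type, and also Sprouty proteins and the ERK phosphatase Dusp6, which dampen the same pathway. Basic FGF is used in adipose stromal cultures because it drives proliferation of preadipocytes. Etv4, Spry4 and Dusp6 are commonly read as outputs of FGF signalling, although other growth factors that activate ERK also induce them.

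Library totals ranged from 315322 to 1102243 counts, so that 3 counts, taken as the floor of detection, stood for 2.72 to 9.51 counts per 1e6 counts (CPM). All 6 fibroblast markers tested were detected in each group, with a summed level of 6532 to 12500 CPM in iWAT and 11960 to 23250 CPM in pgWAT libraries. Xist and Y-linked counts went against the label in 5 of the 10 pgWAT libraries, which were labelled pgWAT female 1, 2 and 3 and pgWAT male 2 and 4. The library labelled pgWAT male 4 held 60 Xist and 0 Y-linked counts, and the library labelled pgWAT female 3 held 0 and 26. The library labelled pgWAT female 1 held both kinds, 7 Xist and 10 Y-linked counts, and was placed among the 5 for its Y-linked counts. All 19 iWAT libraries met their labels. The methods of the study mention low Y-linked counts in female pgWAT cultures as slight contamination, and give group sizes other than those of the labels. Groups were kept as labelled, and results that rest on these libraries are also given without them.

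Promoter sequence is shown for Dusp6 and Spry2, a pair of feedback genes called in opposite directions between the depots with all libraries in the fit. The Spry2 call rests on pgWAT libraries that went against their labels, as given with its values. The windows are the 250 bases before the RefSeq transcription start in GRCm38.p6, written 5′ to 3′ on the strand of the gene. Dusp6 lies on the plus strand at chr10:99262981-99263230, and Spry2 on the minus strand at chr14:105896820-105897069. Capitals mark the letters TGAATGA, part of the octamer bound by Capicua, a repressor that ERK signalling relieves. The whole octamer was not searched, and the marked letters in the Dusp6 window are followed by c.
Dusp6: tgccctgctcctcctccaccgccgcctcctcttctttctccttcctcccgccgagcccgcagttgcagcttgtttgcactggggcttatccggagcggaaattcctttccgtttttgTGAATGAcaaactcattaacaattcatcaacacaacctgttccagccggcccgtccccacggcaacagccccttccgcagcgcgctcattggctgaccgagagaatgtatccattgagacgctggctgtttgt
Spry2: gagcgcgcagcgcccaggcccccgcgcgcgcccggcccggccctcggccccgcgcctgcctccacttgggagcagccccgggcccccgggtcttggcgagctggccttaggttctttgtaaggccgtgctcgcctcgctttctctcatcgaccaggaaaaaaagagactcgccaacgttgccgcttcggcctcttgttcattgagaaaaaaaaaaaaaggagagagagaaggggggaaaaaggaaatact
Both strands were searched for TGAATGA, for the ETS motif CCGGAAG and for the CRE motif TGACGT, and matches of TGAATGA and TGACGT may overlap because both hold TGA. The Dusp6 window held TGAATGA once, starting 133 bases before the transcription start, and neither of the other motifs. None of these 3 strings of letters was found in the Spry2 window. That window does hold ttcattga, which read on the other strand is another form of the octamer bound by Capicua. The lack of TGAATGA there therefore does not mean that the Spry2 window lacks a Capicua site. Other forms of the octamer were not searched systematically in either window, so the 2 windows are not compared for Capicua sites. Among the 32851 promoter windows in the table, TGAATGA occurred in 3.141%, CCGGAAG in 6.907% and TGACGT in 6.469%. Promoters were matched for 7 of the 10 genes, and a match is a description of these letters only.

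The receptors were represented by Fgfr1 almost alone. Fgfr1, the mesenchymal receptor for basic FGF, was at 138.1, 175.2 and 194.9 CPM (lowest, median and highest) in iWAT male libraries and at 148.3, 188.9 and 253.5 CPM in iWAT female libraries. In libraries labelled pgWAT male 1 to 4 it was at 200.9, 106.3, 137.8 and 185.7 CPM, and in pgWAT female libraries at 193.5, 244.6 and 296.6 CPM. The depots overlapped, with 3 of 10 pgWAT libraries above every iWAT library and 2 below. The log2 fold change of pgWAT over iWAT was 0.13 (SE 0.105, 95% interval -0.08 to 0.35, adjusted p = 0.341), which leaves room for a difference of either sign up to those limits.

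Fgfr2, whose epithelial splice form binds Fgf7 and Fgf10, had 16 counts over the 19 iWAT libraries and 10 over the 10 pgWAT libraries. Fgfr3 had 7 and 3 counts. Neither receptor passed the filter on low counts, and most libraries were at or under the floor of 3 counts, so no depot difference was detectable at this depth. Fgfr2 shares 314 exon bases on the same strand with Ctbp2, which had 454 counts, so its few counts are also uncertain in origin. Epithelial markers, 7 genes, summed to 49.8 to 2118 CPM in iWAT female and 0 to 8.50 CPM in iWAT male libraries, in which Fgfr2 had 9 and 7 counts. Per kilobase of exon, the mean level of Fgfr1 was 18.3 ± 3.01 CPM (SD, n = 19) in iWAT and 21.6 ± 6.24 (SD, n = 10) in pgWAT. The corresponding means were 0.127 and 0.159 CPM per kilobase for Fgfr2, and 0.101 and 0.0912 for Fgfr3.

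**Figure D1:**
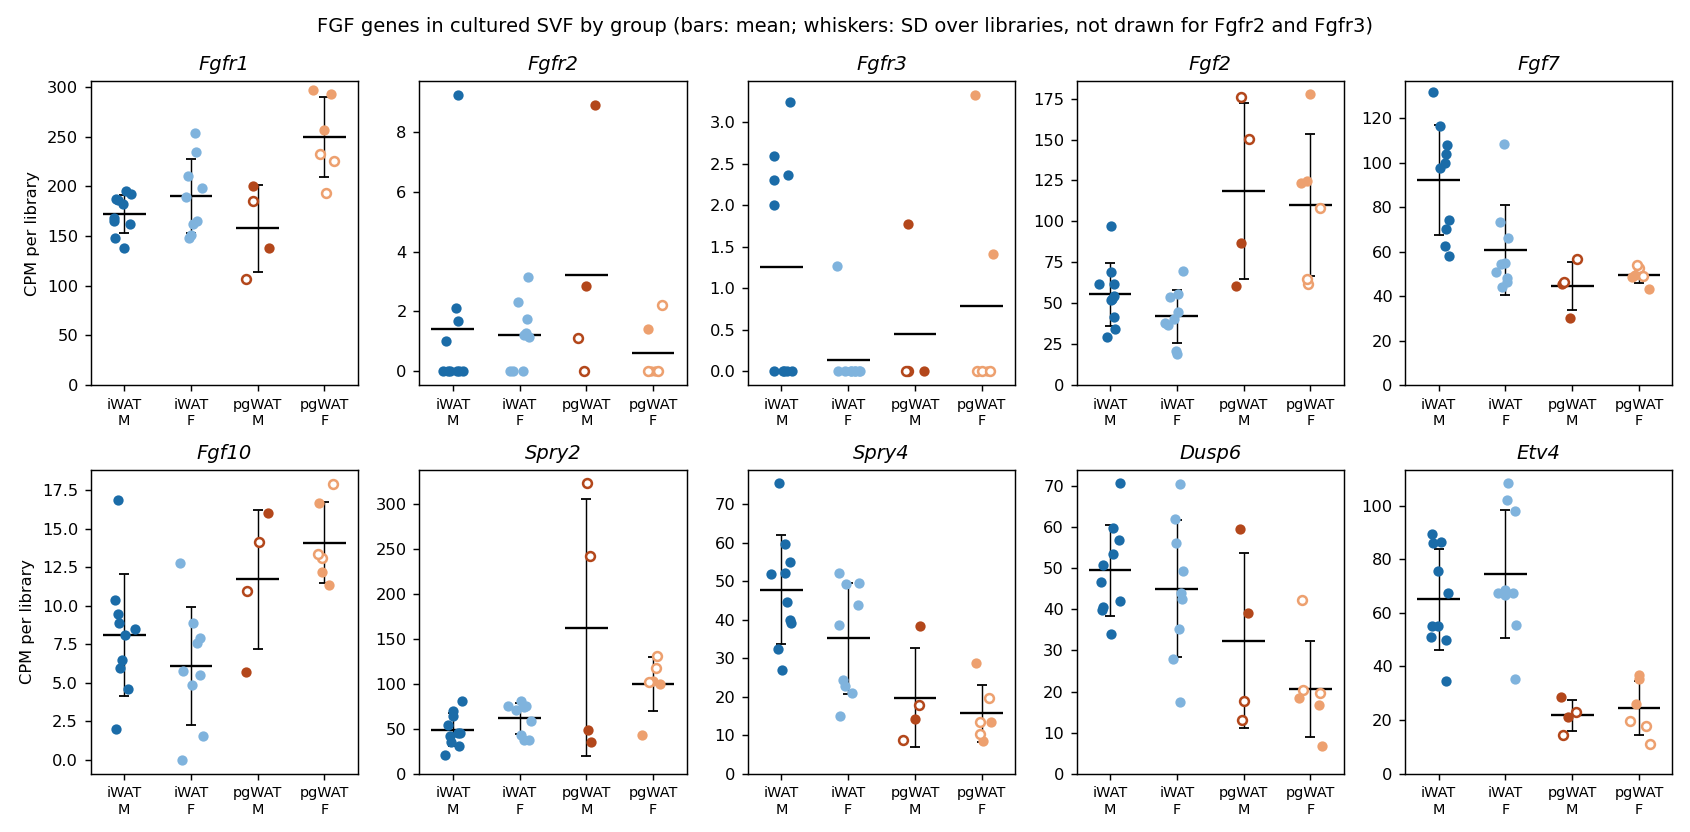
Level of each of the 10 FGF genes in CPM (vertical axes, each with its own scale) in every library of the 4 labelled groups (M, labelled male, and F, labelled female). Each point is a library, open points are the 5 pgWAT libraries whose sex-linked counts went against the label, horizontal bars are means and whiskers are SDs; Etv4 stays below 36.7 CPM in every pgWAT library, and Spry2 reaches 322.5 CPM in a library labelled pgWAT male.

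Among the ligands, Fgf2 was higher and Fgf7 lower in pgWAT cultures. Fgf2, the basic FGF gene of the cells themselves, was at 29.5, 53.7 and 97.0 CPM in iWAT male and at 18.9, 40.6 and 69.6 CPM in iWAT female libraries (lowest, median, highest). The libraries labelled pgWAT male 1 to 4 had 60.4, 150.6, 86.7 and 175.8 CPM, and the pgWAT female libraries ran from 61.5 through a median of 115.7 to 177.8 CPM. All 10 pgWAT libraries were above the iWAT median and 6 were above every iWAT library. The log2 fold change was 1.27 (SE 0.195, adjusted p = 3.31e-06), a 2.40-fold higher level. Fgf2 shares 640 exon bases with Nudt6 on the opposite strand, but Nudt6 had only 20 counts beside 1250 for Fgf2.

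Fgf7, keratinocyte growth factor, is secreted by fibroblasts and acts mainly on epithelium. It was at 58.0, 98.6 and 131.6 CPM in iWAT male libraries and at 44.2, 54.6 and 108.3 CPM in iWAT female libraries. Libraries labelled pgWAT male 1 to 4 had 30.2, 56.7, 45.5 and 46.1 CPM, and the pgWAT female libraries ran from 43.3 through 49.3 to 53.8 CPM. Every pgWAT library was below the iWAT median, 2 of 10 were below every iWAT library, and the iWAT female range covered most of the pgWAT values. The log2 fold change was -0.65 (SE 0.148, adjusted p = 0.000727). By labelled sex it was -1.03 in male (adjusted p = 0.000757) and -0.26 in female cultures (adjusted p = 0.367), and the difference between these (interaction -0.77, 95% interval -1.38 to -0.17) had an adjusted p of 0.421.

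Fgf10, a mesenchymal ligand known for its part in preadipocyte growth, had 160 counts in all, of which 91 were in iWAT, and did not pass the filter. Its level was 7.16 ± 3.93 CPM (SD, n = 19) in iWAT and 13.1 ± 3.48 CPM (SD, n = 10) in pgWAT. Of the pgWAT libraries, 9 of 10 were above the iWAT median, but counts per library were few. Fitted without the filter, the log2 fold change was 0.76 (SE 0.32, adjusted p = 0.111).

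The feedback genes did not move together. Over both labelled sexes, Spry4 and Dusp6 were lower in pgWAT cultures, while Spry2 was higher in most of them. Spry4, a Sprouty protein that restrains RAS to ERK signalling, was at 26.98, 48.3 and 75.5 CPM in iWAT male libraries and at 15.1, 38.7 and 52.1 CPM in iWAT female libraries. Libraries labelled pgWAT male 1 to 4 had 14.2, 17.7, 38.4 and 8.79 CPM, and pgWAT female libraries ran from 8.50 through 13.3 to 28.9 CPM. All 10 pgWAT libraries were below the iWAT median and 6 were below every iWAT library. The fold change was -1.21 on the log2 scale (SE 0.242, adjusted p = 0.000142), a 2.32-fold lower level.

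Dusp6, the cytoplasmic phosphatase that removes phosphate from ERK, was at 34.0, 48.8 and 70.8 CPM in iWAT male and at 17.4, 44.1 and 70.4 CPM in iWAT female libraries. Libraries labelled pgWAT male 1 to 4 had 39.1, 17.7, 59.7 and 13.2 CPM, and pgWAT female libraries ran from 6.66 through 19.0 to 42.3 CPM. The highest pgWAT library, labelled pgWAT male 3, lay inside the upper part of the iWAT range, whereas 9 of 10 were below the iWAT median. The libraries labelled pgWAT male 1 and 3, which met their labels, were within the iWAT male range. Those labelled pgWAT male 2 and 4, which went against their labels, were below it. The log2 fold change was -0.87 (SE 0.23, adjusted p = 0.00297).

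Spry2, another Sprouty inhibitor of growth factor signalling, was at 20.8, 45.1 and 80.8 CPM in iWAT male and at 37.0, 70.7 and 81.2 CPM in iWAT female libraries. Libraries labelled pgWAT male 2 and 4 held the highest values, 322.5 and 241.7 CPM, against 35.6 and 48.3 CPM in those labelled pgWAT male 1 and 3. The pgWAT female libraries ran from 43.3 through 102.5 to 130.6 CPM, and 7 of the 10 pgWAT libraries were above every iWAT library. The log2 fold change was 1.21 (SE 0.238, adjusted p = 0.000119). This call was lost without the 5 pgWAT libraries that went against their labels (log2 fold change 0.11, SE 0.228, adjusted p = 0.773). In male cultures it was 1.72 with all libraries and -0.25 without those labelled pgWAT male 2 and 4.

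Etv4, an ETS transcription factor induced by FGF and ERK, had the lowest adjusted p and the largest absolute fold change of the 7 tested genes between depots. It was at 34.6, 61.4 and 89.4 CPM in iWAT male and at 35.3, 67.4 and 108.5 CPM in iWAT female libraries. Libraries labelled pgWAT male 1 to 4 had 28.4, 23.03, 21.3 and 14.3 CPM, and pgWAT female libraries ran from 11.1 through 22.7 to 36.7 CPM. The depots overlapped only at the edge, with 8 of 10 pgWAT libraries below every iWAT library. The log2 fold change was -1.61 (SE 0.194, adjusted p = 4.36e-08), a 3.04-fold lower level, and it was -1.62 in male and -1.60 in female cultures.

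Together 6 of the 7 genes that passed the filter were called between the depots, 2 higher and 4 lower in pgWAT, where 38.1% of all 8853 genes tested were called (20.1% higher and 17.9% lower). The median log2 fold change of the 7 was -0.65, beside 0.01 for all genes tested. No member had ranges that did not overlap between the depots, which was so for 2.12% of the genes tested. In male cultures 5 of the 7 were called (background 20.3%), namely Fgf2, Fgf7, Spry2, Spry4 and Etv4. The calls of Fgf2 and Spry4 there were lost without the library labelled pgWAT male 4 (0.84, adjusted p = 0.0733, and -1.01, adjusted p = 0.0623), and Dusp6 was called without pgWAT male 3 (-1.16, adjusted p = 0.0201). Without the libraries labelled pgWAT male 2 and 4 and the other 3 against their labels, Fgf2 (0.42, adjusted p = 0.506), Spry2 (-0.25, adjusted p = 0.753) and Spry4 (-0.84, adjusted p = 0.254) all lost their calls in male cultures. Fgf7 (-1.28) and Etv4 (-1.43) were then the 2 members called there, where 9.16% of all genes tested were called. In female cultures 5 were called (background 26.8%), namely Fgfr1, Fgf2, Spry4, Dusp6 and Etv4. The Fgfr1 call in female cultures, a log2 fold change of 0.39 (adjusted p = 0.0329), was lost on leaving out any of 7 single libraries, which were iWAT female 2, 3, 4 and 5 and pgWAT female 4, 5 and 6 (log2 fold change 0.34 to 0.38 without them). The Spry4 call in female cultures (-1.15) was lost without the libraries against their labels (-1.03, adjusted p = 0.0806), which left Fgfr1, Fgf2, Dusp6 and Etv4 called (background 18.3%).

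**Figure D2:**
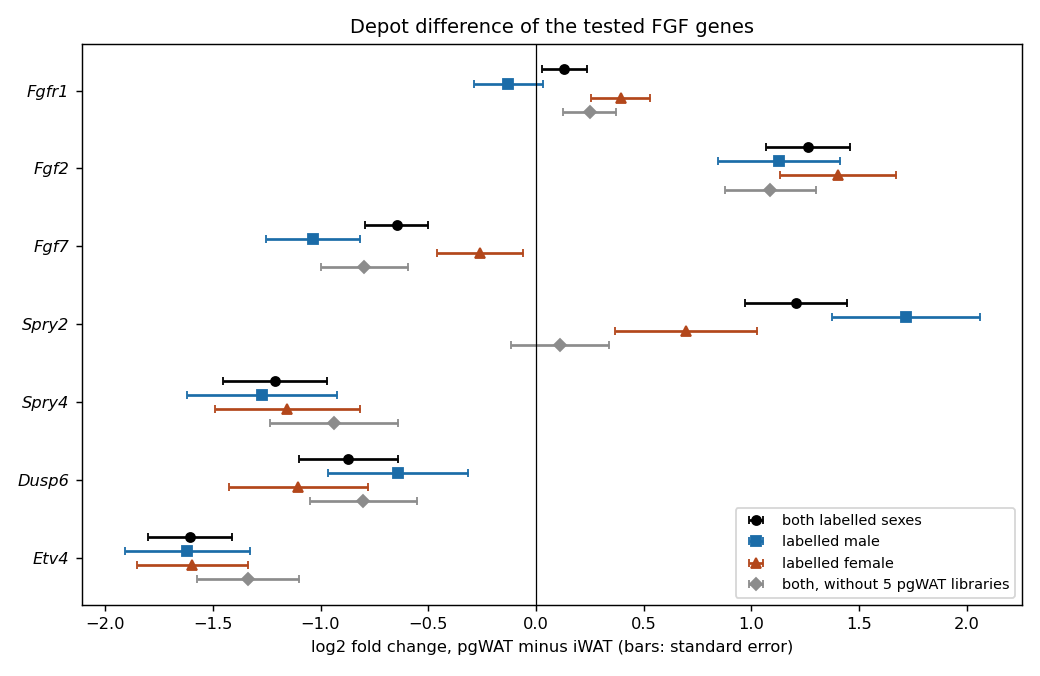
Log2 fold change of pgWAT over iWAT (horizontal axis) with its standard error for the 7 tested FGF genes, over both labelled sexes, in each labelled sex, and over both sexes without the 5 pgWAT libraries that went against their labels. Fgf2 lies right of 0 and Fgf7, Spry4, Dusp6 and Etv4 left of 0 in all 4 versions, while Spry2 falls from 1.21 to 0.11 when the 5 libraries are left out.

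Without the 5 pgWAT libraries, the depot difference over both labelled sexes was 1.09 for Fgf2, -0.80 for Fgf7, -0.94 for Spry4, -0.80 for Dusp6 and -1.34 for Etv4. These values are on the log2 scale, with adjusted p-values from 7.91e-05 to 0.0204 (background 23.7%). Dusp6 was not called in male cultures alone in that fit. With the well column of the plate as a factor, the same 5 genes and Spry2 were called, at 1.27 for Fgf2, -0.69 for Fgf7, 1.20 for Spry2, -0.87 for Spry4, -0.72 for Dusp6 and -1.38 for Etv4 (background 30.6%). Within well column 9, libraries labelled pgWAT male 2 and 4, which went against their labels, were set against 3 iWAT male libraries. There the Dusp6 difference was -1.68 (adjusted p = 0.00273) and that of Spry2 was 2.46 (adjusted p = 2.19e-06), where 25.2% of all genes tested were called. Depot and sex cannot be told apart in that column, because these pgWAT libraries held Xist counts and the iWAT male libraries met their labels. Within well column 8, which held female cultures of both depots, Fgf2 (1.53) and Etv4 (-0.99) were called (background 16.0%). Fgfr1 (0.39, adjusted p = 0.0973), Spry4 (-0.38, adjusted p = 0.594) and Dusp6 (-0.95, adjusted p = 0.127), all called in female cultures with every column, were not. With the well column as a factor, Fgf2, Dusp6 and Etv4 were called in female cultures (background 19.2%), and Fgfr1 (0.40, adjusted p = 0.0647) and Spry4 (-0.73, adjusted p = 0.169) were not. Well column 10 held pgWAT female 1, 2 and 3 and only 1 iWAT library, iWAT female 3, which was too few for a depot difference of its own.

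Few of these genes were called between the labelled sexes. In iWAT, 1 of the 7 genes was called between male and female cultures (background 3.22%). This was Fgf7, with a log2 fold change of 0.63 (SE 0.161, adjusted p = 0.0214). The libraries iWAT female 9, 3 and 6, at 108.3, 73.1 and 66.15 CPM, lay within the iWAT male range of 58.04 to 131.6 CPM. Macrophage markers summed to 1449 to 2477 CPM in iWAT male and 633.7 to 1121 CPM in iWAT female libraries, and 5 adipocyte markers to 116.9 to 222.2 and 25.2 to 55.0 CPM, and their part in the Fgf7 difference was not tested. The call was lost with the well column as a factor (0.55, adjusted p = 0.0525), within well column 7 (0.77, adjusted p = 0.0563), and without the library iWAT male 1 (0.58, adjusted p = 0.05) or iWAT male 10 (0.56, adjusted p = 0.0517). None of the 7 was called between the libraries labelled pgWAT male and female by edgeR (background 0.0113%), where 739 of all genes had an unadjusted p under 0.05, and Fgfr1 alone of the 7 was among them (-0.66, unadjusted p = 0.000581, adjusted p = 0.215). DESeq2 called Fgfr1 there (-0.67, adjusted p = 0.0373). With only the libraries that met their labels, leaving 2 male and 3 female, 5.63% of all genes tested were called, and of the members Fgfr1 was lower (-0.76, adjusted p = 0.0372) and Dusp6 higher (1.66, adjusted p = 0.0219) in the male cultures. None of the 7 had a depot difference that differed between the labelled sexes (background 0.181%), although Fgfr1, Fgf7 and Spry2 had unadjusted p-values of 0.0192, 0.0132 and 0.0415 in that test.

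Within pgWAT the feedback genes differed between libraries of the same label. Macrophage markers, 7 genes such as Adgre1 and Csf1r, summed to 7338 and 7941 CPM in the libraries labelled pgWAT male 1 and 3, to 1146 and 1090 CPM in male 2 and 4, to 2209, 3317 and 3141 CPM in female 1 to 3, and to 759.6, 724.8 and 829.7 CPM in female 4 to 6. Dusp6 was highest, at 39.1 to 59.7 CPM, in pgWAT male 1 and 3 and pgWAT female 3, which were among the 4 libraries with the highest macrophage sums. It was at 6.66 to 20.5 CPM in the other 7, of which pgWAT female 2 had a macrophage sum of 3317 CPM. Spry2 had no single order along the macrophage sum. In the male libraries it was highest at the low sums, and in the female libraries it was highest, at 130.6 and 117.9 CPM, in female 2 and 3 with the high sums, and lowest, at 43.3 CPM, in female 6. The proliferation markers, 8 genes, also summed higher in pgWAT male 1 and 3 (1116 and 1192 CPM) than in the other pgWAT libraries (518.6 to 700.6 CPM). In iWAT the macrophage sum was 633.7 to 2477 CPM and the proliferation sum 1084 to 1650 CPM, and all 7 and all 8 markers were detected, while Cd163 was at 0 in the pgWAT female libraries. The 7 mesothelial markers summed to 62.2 to 194.1 CPM in pgWAT and 2.00 to 100.7 CPM in iWAT, where Lrrn4 was at 0, and 9 pericyte and smooth muscle markers to 1378 to 3212 and 644.2 to 3652 CPM. The medians in pgWAT and iWAT were 111.2 and 22.7 CPM for the mesothelial, and 2390 and 882.1 CPM for the pericyte and smooth muscle markers. Both iWAT maxima were in iWAT female 9. The part of these marker lists in the depot and library differences of the FGF genes was not tested. In bulk RNA, fewer cells of a type and less RNA per cell cannot be told apart.

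**Figure D3:**
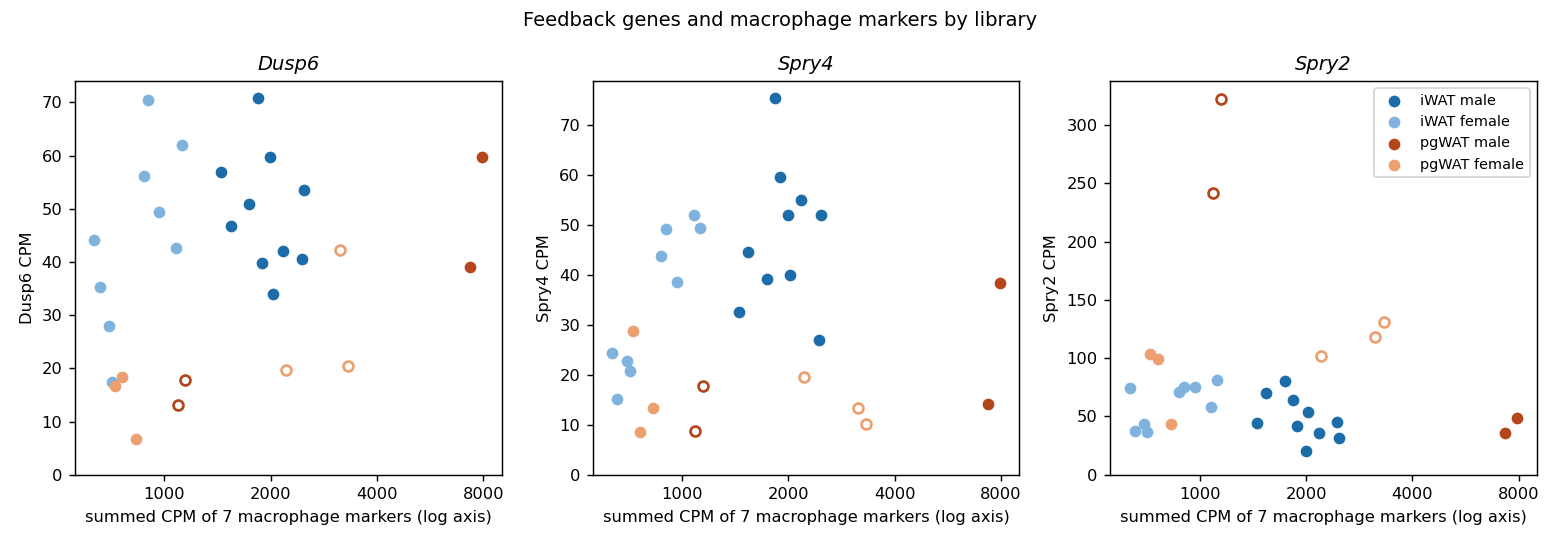
Dusp6, Spry4 and Spry2 in CPM (vertical axes) against the summed CPM of 7 macrophage markers (horizontal axis, logarithmic) in each of the 29 libraries, coloured by labelled group, with open points for the 5 pgWAT libraries that went against their labels. The libraries labelled pgWAT male 1 and 3 lie at the far right, at 7338 and 7941 CPM, with Dusp6 at 39.1 and 59.7 CPM, and the pair with Spry2 at 322.5 and 241.7 CPM lies at 1146 and 1090 CPM of macrophage markers.

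Levels were ordered by mean CPM per kilobase of exon. In iWAT the order was Spry2 (26.3), Fgf7 (23.8), Etv4 (22.4), Fgfr1 (18.3), Dusp6 (15.1), Spry4 (8.79), Fgf2 (7.24), Fgf10 (1.56), Fgfr2 (0.127) and Fgfr3 (0.101). The ranges of the mean ± SD of neighbours in this order overlapped, except between Fgf2 and Fgf10 and between Fgf10 and Fgfr2. In pgWAT the order was Spry2 (59.6), Fgfr1 (21.6), Fgf2 (16.7), Fgf7 (14.6), Dusp6 (8.11), Etv4 (7.53), Spry4 (3.64), Fgf10 (2.86), Fgfr2 (0.159) and Fgfr3 (0.0912), and only between Fgf10 and Fgfr2 did these ranges not overlap. Etv4 thus had rank 3 in iWAT and rank 6 in pgWAT, and Fgf2 had rank 7 and rank 3.

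Across libraries, with the group means removed, Spry4 and Dusp6 varied together (Pearson r = 0.502 over 29 libraries, 0.631 within iWAT and 0.389 within pgWAT). Spry2 and Dusp6 did so in iWAT (0.427) but not in pgWAT (-0.329). Fgf2 and Fgf7 also varied together (0.596), and Fgf7 and Etv4 ran in opposite directions (-0.624). The gene most like Dusp6 was Ccnd1 (0.827), followed by the macrophage gene Adgre1 (0.804) and the fatty acid transporter Cd36 (0.782). Spry2 was most like the metalloprotease Adam9 (0.839), Fgf7 most like the translation factor Eif4a1 (0.827), Fgf2 like Il1rl1 (0.803), Etv4 like Mgp (0.795), Fgfr1 like Ctnnb1 (0.715) and Spry4 like Faap100 (0.706). These correlations are descriptions, since the wells share experiments and the likeness was searched over all tested genes.

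The rest of the pathway was read from 7 lists by role, in which the 10 genes are included. Of 7 receptors and co-receptors, 1 passed the filter and 0 were called. Of 22 ligands, 3 passed and all 3 were called, where 38.1% of all genes tested were. Among them was Fgf1, a ligand for all FGF receptors. Fgf1 had a median of 3.66 CPM in iWAT (0 to 15.5) and 13.2 CPM in pgWAT (0 to 64.0), and a log2 fold change of 2.31 (adjusted p = 0.000121) that lost its call with the well column as a factor (1.35, adjusted p = 0.0555) and in limma-voom (1.02, adjusted p = 0.21).

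Of 13 heparan sulfate carriers and FGF-binding proteins, 7 were tested, of which 4 were called higher in pgWAT (20.1% of all genes were), 0 lower and 3 not called (list median 0.81, beside 0.01 for all genes). Syndecan Sdc4 was at 74.0, 116.6 and 221.4 CPM in iWAT and at 263.1, 450.9 and 522.5 CPM in pgWAT libraries (lowest, median, highest), so that the depots did not overlap. Its log2 fold change was 1.76 (adjusted p = 6.39e-12), beside 1.12 for Sdc2 and 0.86 for Sdc3. The glypican Gpc4, named after its value was seen, was the other one called (0.81). Of 9 tested genes of heparan sulfate synthesis and editing, 3 were higher and 1 lower, beside 20.1% higher and 17.9% lower over all genes tested. The sulfatase Sulf1, which removes sulfate groups needed for FGF receptor complexes, was 4.18-fold higher in pgWAT (log2 fold change 2.06, adjusted p = 8.24e-14), at 144.9 to 351.0 CPM against 25.9 to 118.4 CPM, again without overlap. The chain polymerases Ext1 and Ext2 were higher by 0.66 and 0.58, and the sulfotransferase Hs6st1 fell by 0.49 on the log2 scale. In iWAT, Sulf1 was also lower in male than in female cultures (-0.81, adjusted p = 0.00873).

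Of 16 tested adaptors and genes of the RAS to ERK core, 2 were higher and 1 lower, where 38.1% of all genes were called in either direction (list median 0.17). The MEK gene Map2k1 was at a median of 44.2 CPM in iWAT and 133.4 CPM in pgWAT (log2 fold change 1.24, adjusted p = 7.73e-07). The receptor adaptor Frs2 was higher by 0.57 (adjusted p = 0.0238) and Nras fell by 0.37 on the log2 scale (adjusted p = 0.00692). Of 10 tested feedback inhibitors, 1 was higher (Spry2) and 3 lower, namely Spry4, Dusp6 and Spred1 (-0.66, adjusted p = 0.00653). The other 6 were not called, where 38.1% of all genes were called. Spry2, Frs2, Spred1 and Hs6st1 lost their calls without the 5 pgWAT libraries that went against their labels (0.11, 0.45, -0.49 and -0.28), and Frs2 also without pgWAT male 4 (0.42) or pgWAT female 5 (0.37).

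Of 8 tested ERK-responsive transcription factors and targets, 5 were lower and 1 higher in pgWAT (list median -0.55). Over all genes tested, 17.9% were lower and 20.1% higher. The G1 cyclin Ccnd1 was at 156.0, 318.6 and 527.1 CPM in iWAT and at 3.33, 25.2 and 160.6 CPM in pgWAT libraries. Its log2 fold change was -2.85 (adjusted p = 6.81e-09), and 1100 of its exon bases lie opposite LTO1, which had mean levels of 146.8 CPM in iWAT and 49.5 CPM in pgWAT. Whether counting used strand is not given in the sources used here, so reads of this pair cannot be told apart. The AP-1 gene Fosl1 was lower by a log2 fold change of -1.23 (adjusted p = 0.000211) and overlaps Ccdc85b on the opposite strand. Etv5 (-0.59) and Myc (-0.36, adjusted p = 0.0498), named after their values were seen, were lower too, and the early response gene Ier3 was higher (0.85, adjusted p = 0.00113). The proliferation markers, the genes of DNA replication and mitosis, were lower for 7 of 8 (list median -0.83), beside 17.9% lower over all genes tested.

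**Figure D4:**
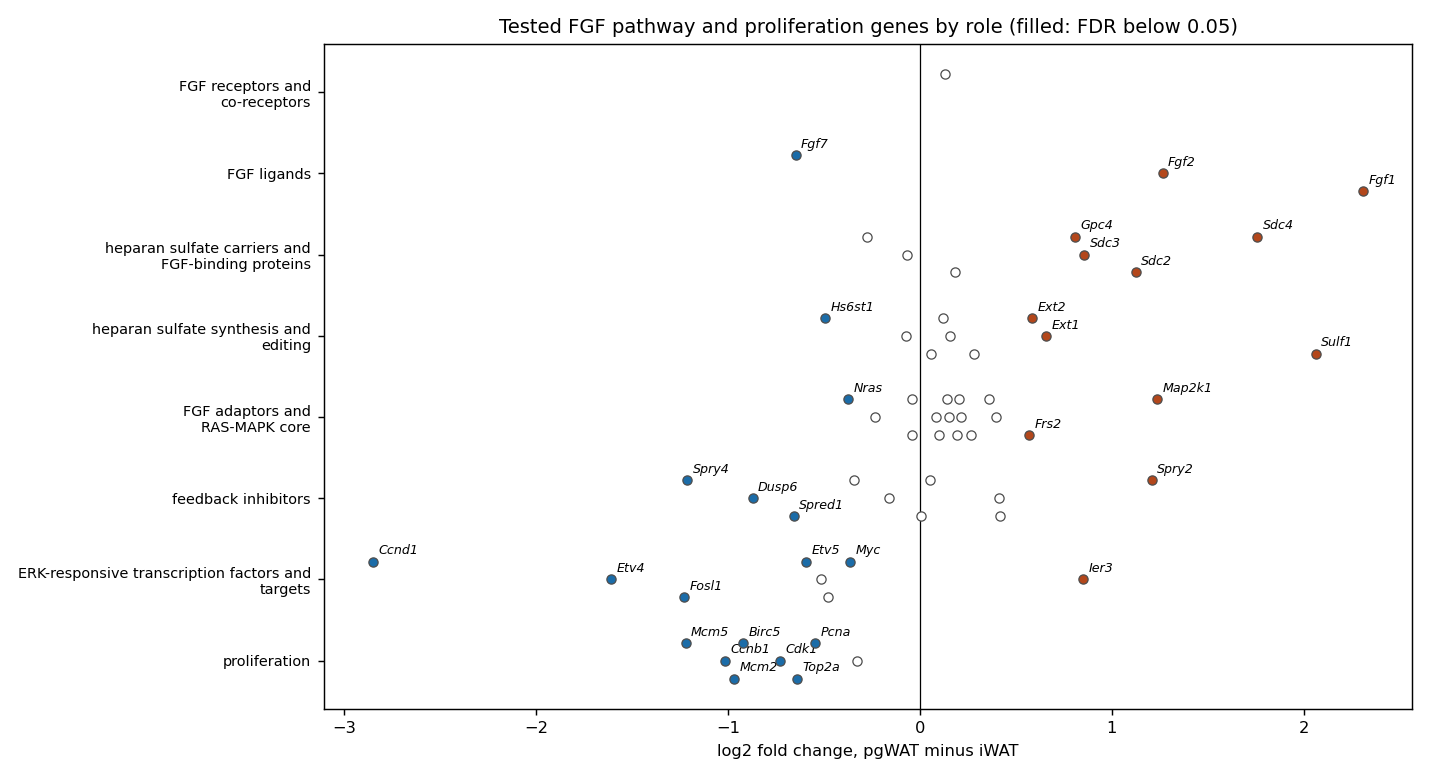
Log2 fold change of pgWAT over iWAT (horizontal axis) for every tested gene of the 7 FGF pathway lists and of the proliferation list, in rows by role; filled points were called at an adjusted p below 0.05 (edgeR) and are named, open points were not. Heparan sulfate carriers lie to the right up to 1.76 for Sdc4, and ERK-responsive genes to the left down to -2.85 for Ccnd1.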

How the data were processed

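RNA of 29 cultured crude SVF wells was made into Smart-seq3 libraries. The authors quantified reads with Salmon 1.9.0 on a Gencode transcriptome of GRCm39 and deposited estimated counts per gene (expected counts, not normalized), of which 96.5% were exactly whole, or 85.1% when zeros are left out. Other processing details that bear on strand are not given in the sources used here. Counts were rounded to whole numbers, and 52029 features (91.4%) were matched to symbols by Ensembl ID. Exon lengths and overlaps came from a GRCm38 annotation.

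The 4 labelled groups were fitted together with edgeR 4.0.16 (R 4.3.3; TMM, filterByExpr, quasi-likelihood F tests, two-sided), and p-values were adjusted over 8853 genes by Benjamini-Hochberg, with calls at 0.05. Python 3.11.15 was used for tables. CPM were counts scaled to 1e6 of the library size over the genes tested, adjusted by TMM. The floor of 3 counts was scaled by the library totals instead, so it is on a slightly different scale. Correlations used log2 CPM with a prior count of 2. Floors cover counting error only. On simulated counts, 79% of 2-fold and 98% of 4-fold changed genes were recovered in the depot contrast, 70% and 95% between sexes in iWAT, and 49% and 84% between sexes in pgWAT. The simulated wells were independent and their labels right, so these rates do not cover shared experiments or labels that sex-linked counts went against. Alternatives were RLE or total-count scaling, no filter, DESeq2 1.42.0, limma-voom (limma 3.58.1), the well column as a factor or taken singly, groups fitted alone or by depot only, and libraries left out.

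Named genes were the 10 members, up to 3 called genes per pathway list and direction with the largest depot difference, and the 3 genes most like each tested member. The members and lists were chosen with earlier results of these data known.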

Additional observations from a re-analysis of the deposited data

Results flagged for a closer look

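In 40 sets of values (10 genes in 4 labelled groups), 5 had a library far from the others of its group, and chance flags about 1 in 20 such groups. Fgf7 was at 108.3 CPM in iWAT female 9, against 73.1 CPM in the next library of that group. That library also had the highest epithelial marker sum, 2118 CPM, and a relation between them was not tested. Spry2 was at 43.3 CPM in pgWAT female 6, the lowest of 6, and the next was at 99.2 CPM. The other 3 rest on few counts, with Fgfr2 at 9.24 CPM (4 counts) in iWAT male 10, Fgfr3 at 1.27 CPM (1 count) in iWAT female 7 and Fgfr3 at 1.78 CPM (1 count) in the library labelled pgWAT male 1.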

How the results depend on the processing

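Of 2100 values of single genes under another setting, 2061 kept their side of the threshold, and those of them that were called kept their direction. A further 32 lost and 6 gained a call. A change of sign counted as a reversal only where a fit was called, and 1 was found. This was Spry2 between depots in male cultures (-0.25 without the pgWAT libraries against their labels). Values not called could change sign, as Fgfr1 did between depots in male cultures (-0.26 to 0.02 on leaving out 1 library). All 37 alternatives kept the depot calls of Fgf2, Fgf7, Spry4, Dusp6 and Etv4 over both sexes. The number of genes called between sexes in iWAT (285) was 510 without the filter and 496 with the well column as a factor. Between sexes in pgWAT (1) it was 59 without the filter, 58 with the well column, 16 in DESeq2, 6 in limma-voom and 536 without the pgWAT libraries against their labels. For the interaction (16) it was 73 without the filter, 37 in DESeq2, 2 in limma-voom and 244 without those libraries. In male cultures the depot count (1801) was 872 without them, and in female cultures (2374) it was 1297 within well column 8. Members called numbered 3 with the well column and 2 within well column 8 for depot in female cultures (5), 2 without those libraries for depot in male cultures (5), 0 with the well column and 0 within well column 7 for sex in iWAT (1), and 1 in DESeq2 and 2 without those libraries for sex in pgWAT (0).

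Leaving out 1 library at a time gave 3019 to 3380 genes for depot, 1184 (without pgWAT male 4) to 1903 for depot in male, 2051 to 2466 for depot in female, 205 to 327 for sex in iWAT, 0 to 9 for sex in pgWAT and 3 to 31 for the interaction. Members called were 6 throughout for depot, 3 to 6 in male, 4 to 5 in female, 0 to 1 for sex in iWAT, and 0 for sex in pgWAT and for the interaction. In male cultures, without pgWAT male 4, Fgf2 (0.84, adjusted p = 0.0733) and Spry4 (-1.01, adjusted p = 0.0623) lost their calls, and without pgWAT male 3 Dusp6 gained one (-1.16, adjusted p = 0.0201). The cause of these changes was not tested, apart from the fewer libraries. Totals under 1102243 counts limit Fgfr2, Fgfr3 and Fgf10. No paired analysis was possible because the labels give wells and no replicate numbers.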
